A study of Mus musculus with 7 samples.

Results

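The genes described here are 10 mouse genes of insulin and insulin-like growth factor (IGF) signalling: the ligand gene Igf1, the receptor genes Igf1r, Insr and Igf2r, the adaptor genes Irs1 and Irs2, and the binding protein genes Igfbp3, Igfbp4, Igfbp5 and Igfbp7. They were found by gene symbol among the 32212 gene identifiers of each file, and all 10 had a row and passed the filter on low values, as did 14838 genes in all. The set was chosen by an earlier look at these same libraries, in which Irs1 and Igf1 drew attention in the comparison of treated with untreated tumours. The differences between groups are therefore given for all 10 as a description, and no test of them is reported.

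RNA was sequenced from whole subcutaneous tumours that had formed in wild-type C57BL/6J mice after LLC cells, a mouse line derived from Lewis lung carcinoma, were injected into the axilla at 6 weeks of age. Treated tumours came from mice given a high dose, 42.67 g/kg, of the herbal medicine Ze-qi decoction (ZQD), in 3 libraries, and the others from mice of the untreated model group (control), in 4 libraries. Both groups carried the same implanted cells, control mice are labelled as having had no treatment with no vehicle named, and the labels date tumour collection to day 21 in one place and day 22 in another. The labels do not say that each library is a separate mouse, so spreads and p-values given here measure only the variation between libraries, which may be technical.

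IGF1 and insulin bind related receptor tyrosine kinases, IGF1R and the insulin receptor, which phosphorylate the adaptor proteins IRS1 and IRS2 and through them switch on the PI3 kinase, AKT and mTOR cascade of growth and nutrient uptake. The product of Igf2r carries IGF2 and mannose 6-phosphate-tagged enzymes to lysosomes and does not signal as a kinase. Secreted IGF binding proteins hold IGFs in the extracellular fluid and on matrix and can block or prolong their action, and proteases such as PAPP-A free the ligand again. In tumours, IGF1 is known to come in part from macrophages and fibroblasts, while malignant cells carry the receptors.

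Levels are in FPKM, which divides the reads of a gene by its length and by the total of its library, so that genes can be compared with each other. Values are listed in library order, ZQD 1 to 3 and controls 1 to 4. Library totals ran from 34765330 to 38673663 reads in ZQD and from 32065288 to 49914394 in controls. Mitochondrially encoded genes took 8.78% to 11.1% of reads in ZQD and 5.18% to 7.96% in controls, without overlap. Leaving those genes out of the library totals moved the median log2 difference of all genes from -0.043 to 0.0037. Of 7 lung and epithelial markers, Epcam, Krt8, Nkx2-1 and Sftpc were at most 0.288 FPKM in any library. Krt18 was at 0.0755 to 0.702 FPKM in ZQD and 0.106 to 0.680 in controls, Cdh1 at 0.622 to 0.981 FPKM in ZQD and 0.551 to 1.26 in controls, and Krt19 at 6.26 to 19.7 FPKM in ZQD and 7.14 to 31.6 in controls. Summed over 10 macrophage markers, levels were 1087 to 1418 FPKM in ZQD and 736.9 to 1067 in controls, so each library is a mixture of tumour and host cells. In such bulk tissue, fewer cells of a type and less RNA per cell cannot be told apart.

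Within the ZQD tumours the 10 genes spanned levels from 0.0862 to 147.5 FPKM, and the order was nearly the same in the controls. Igfbp4 was highest, at 126.4 ± 24.0 FPKM in ZQD (SD, n = 3) and 158.6 ± 33.9 in controls (SD, n = 4), and exceeded Igfbp7 in all 7 libraries. Igfbp7, Igfbp3 and Igf2r followed, but Igfbp3 and Igf2r exchanged places between libraries, Igfbp3 being above Igf2r in 2 of 3 ZQD libraries and 3 of 4 controls. Irs2, Igf1r and Insr formed a middle tier between 5.02 and 12.1 FPKM over all libraries. Irs2 lay above Igf1r in 3 of 3 ZQD libraries and 3 of 4 controls, at control means of 10.70 for each, so these neighbours did not differ beyond their spread. Irs1 stood below that tier in all 7 libraries, and Igf1 and Igfbp5 were lowest, both under 1 FPKM in every library but ZQD 2.

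**Figure D1:**
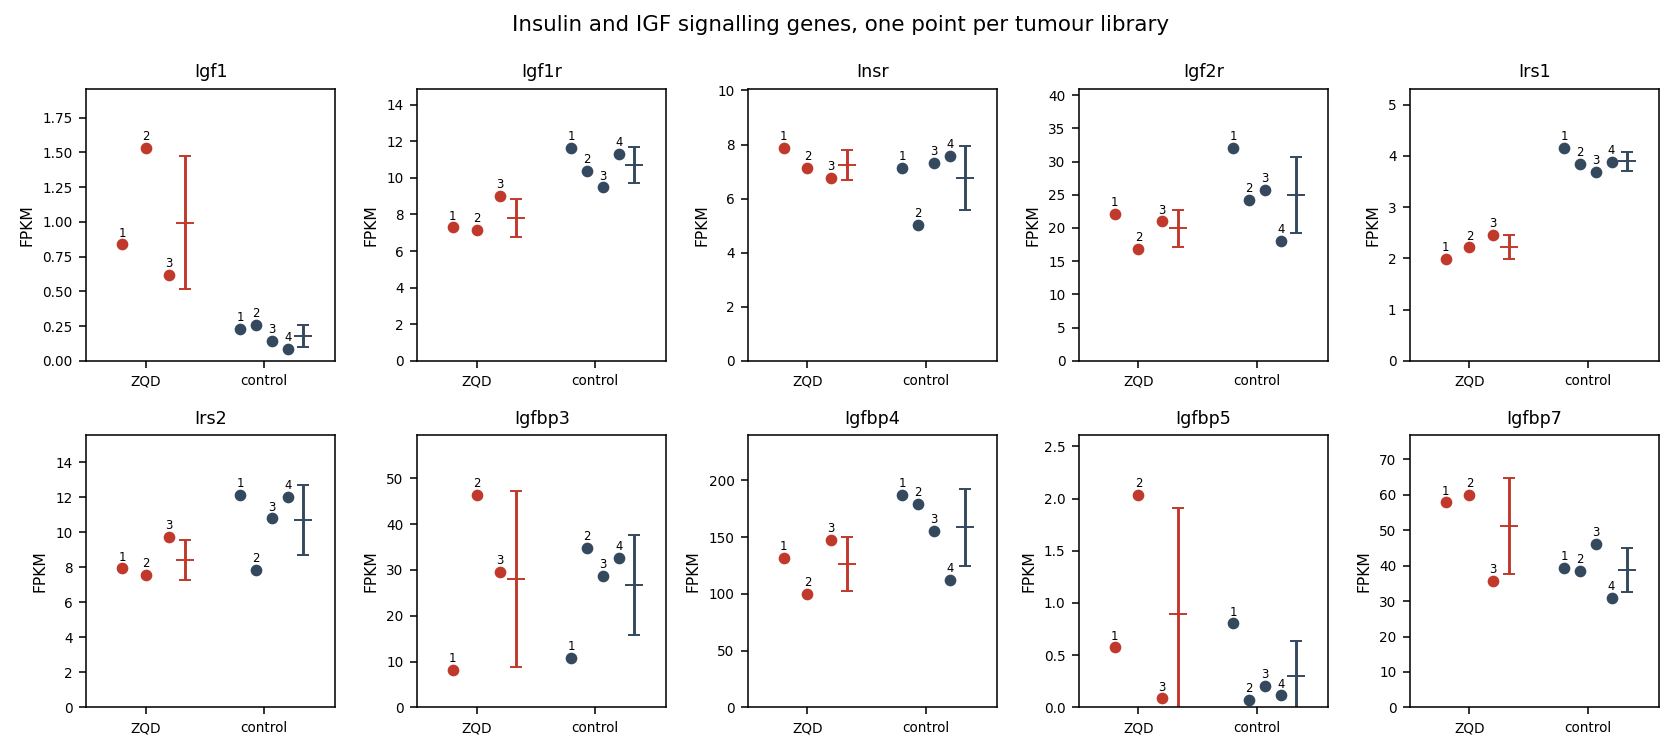
FPKM of the 10 genes in each tumour library, ZQD left and control right, 1 panel per gene with its own axis from 0. Numbers beside the points are library numbers, and the bar beside each group is the mean with the SD (cropped at 0 for Igfbp5). Irs1 and Igf1r have all ZQD points below all control points and Igf1 has all above, and the other 7 panels overlap.

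Of the 10 genes, 2 (Irs1 and Igf1r) had all ZQD libraries below all controls and 1 (Igf1) had all above, and the groups of the other 7 overlapped. Over all 14838 genes tested, 9.84% lay wholly below and 5.35% wholly above, and since the same contrast chose the set, nothing is read from its counts. In the limma fit over all genes, 0 genes (0%) passed an adjusted p of 0.05 (Benjamini-Hochberg). At an unadjusted p under 0.05 there were 2306 genes. On reads rebuilt from FPKM, edgeR called 0 genes and DESeq2 517, or 4.13% of those with an adjusted p. On the log2(FPKM + 0.5) scale, ZQD minus control, 6 of the 10 differences were negative and 4 positive, with a median of -0.20, beside a median of -0.043 over all genes tested. Standard errors come from that fit.

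**Figure D2:**
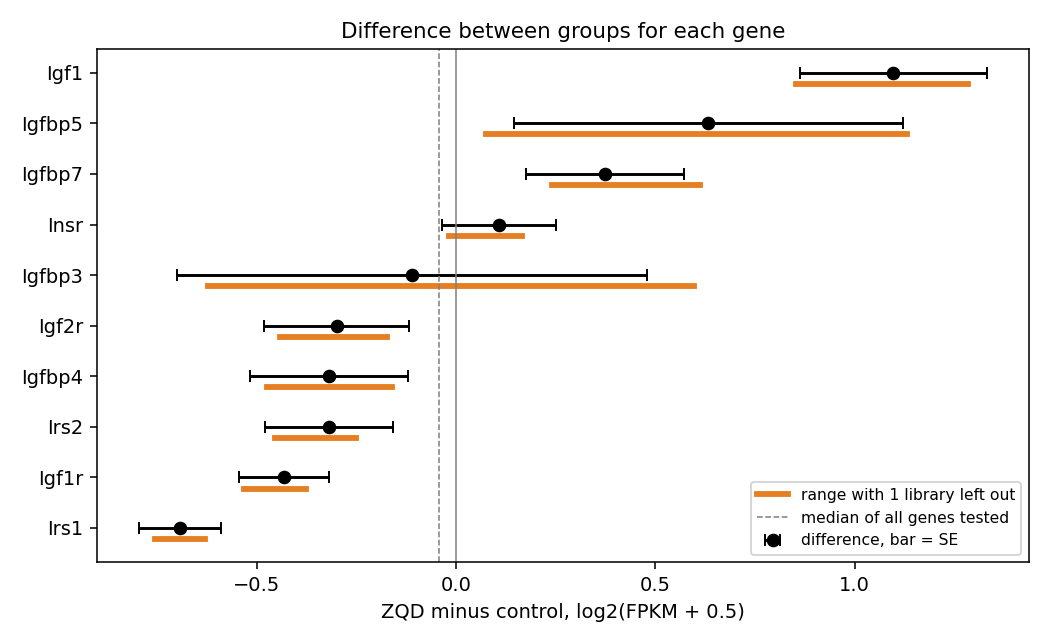
ZQD minus control difference of each gene on the log2(FPKM + 0.5) scale (points, with SE as bars), and the range of that difference with each library left out in turn (orange). The dashed line is the median of all genes tested, -0.043. Irs1, at -0.69, and Igf1, at 1.10, lie farthest from 0, and the range of Igfbp3 runs from -0.62 to 0.60.

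The ligand gene Igf1 (ENSMUSG00000020053) was the one gene of the 10 with every ZQD library above every control. It was at 0.838, 1.53 and 0.619 FPKM in ZQD 1 to 3, against 0.233, 0.260, 0.145 and 0.0846 FPKM in controls 1 to 4. ZQD 2 was highest and control 4 lowest, and the lowest ZQD library was still more than double the highest control. These levels rest on 306, 586 and 213 reads in ZQD and 115, 100, 46 and 33 in controls. The means were 0.996 ± 0.476 FPKM in ZQD (SD, n = 3) and 0.180 ± 0.0806 in controls (SD, n = 4), a ratio of 5.52, while the log2(FPKM + 0.5) difference was 1.10 (SE 0.23). That scale understates the change of a gene this low: the difference was 1.93 with a pseudocount of 0.1, 0.73 with a pseudocount of 1, and 2.51 in edgeR. Igf1 met the filter of 0.5 FPKM in 3 libraries only through the 3 ZQD libraries, so it could enter the table only with groups that differ.

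Macrophage markers, like Igf1, were mostly higher in ZQD. Of 9 macrophage markers tested, 8 were higher and 1 lower in ZQD, and 0 passed the adjusted threshold. For 5 the groups did not overlap, where 5.35% of all genes tested lay wholly above. The list was chosen with earlier results of these data known. The summed level of the markers did not overlap between groups, but only narrowly, at 1087 FPKM in ZQD 1 and 1067 in control 3. Lyz2 alone stood at 362.2 FPKM in ZQD 1 and 268.8 in control 3, a wider gap than that of the sums. Inside each group the order of the sum differed from that of Igf1. Control 3 had the highest sum of the controls, at 1067 FPKM, with Igf1 at 0.145. Folr2, a folate receptor of tissue-resident macrophages, was at 4.00, 11.7 and 5.30 FPKM in ZQD, against 2.31, 2.75, 2.02 and 1.49 in controls. Igf1 per 1000 FPKM of the summed macrophage markers was 0.771, 1.08 and 0.457 in ZQD, against 0.246, 0.247, 0.136 and 0.115 in controls. Igf1 was picked from this same contrast, so nothing about macrophage content is read from that ratio. The pan-macrophage genes Adgre1 (11.5 to 19.4 FPKM in ZQD and 12.6 to 17.0 in controls) and C1qa (162.4 to 163.4 FPKM in ZQD and 156.2 to 173.7 in controls) overlapped. C1qb was among the 5 without overlap, at 285.3 to 343.7 FPKM in ZQD and 205.1 to 285.1 in controls. Fibroblast markers, summed over 10 genes, were at 130.0, 262.8 and 49.99 FPKM in ZQD and 38.2 to 152.5 in controls. Adipocyte markers were highest in ZQD 1, summing to 99.0 FPKM against 2.43 to 22.3 in the other ZQD libraries and 2.25 to 6.74 in controls. The part of the macrophage, fibroblast and fat signals in the Igf1 level was not tested.

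The 5 genes whose log2(FPKM + 0.5) over the 7 libraries was most like that of Igf1, of 12053 named genes searched, were Galnt6 (Pearson r = 0.988), Cd302 (0.988), Mfsd6 (0.979), Rcsd1 (0.977) and Marco (0.971). Marco, a scavenger receptor of macrophages, was at 7.83, 28.6 and 8.50 FPKM in ZQD, against 0.729, 2.51, 0.940 and 0.264 in controls. Cd302, a C-type lectin receptor of myeloid cells, was at 9.54, 11.7 and 8.31 FPKM in ZQD, against 6.20, 6.08, 6.01 and 5.91 in controls. Like Igf1, both were highest in ZQD 2 and lowest in control 4. With 7 points, r above 0.95 was reached by 25 genes, and these values are a description only.

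Among the receptors, Igf1r and Insr, which encode closely related kinases that also form hybrids, did not run in parallel. Igf1r (ENSMUSG00000005533) was at 7.29, 7.16 and 9.01 FPKM in ZQD, against 11.6, 10.4, 9.47 and 11.3 FPKM in controls. All ZQD libraries were below all controls, although ZQD 3 came within 0.5 FPKM of control 3. The log2(FPKM + 0.5) difference was -0.43 (SE 0.11), and leaving out 1 library gave -0.53 to -0.38. Insr (ENSMUSG00000005534) was at 7.86, 7.13 and 6.78 FPKM in ZQD, against 7.14, 5.02, 7.33 and 7.57 in controls. Its groups overlapped, with control 2 apart from the rest at the low end, and the difference of 0.11 (SE 0.14) became -0.019 without control 2. The ratio of Igf1r to Insr within a library was 0.927, 1.00 and 1.33 in ZQD, against 1.63, 2.07, 1.29 and 1.49 in controls, overlapping through ZQD 3 and control 3. Summed, the pair stood at 15.1 ± 0.757 FPKM in ZQD (SD, n = 3) and 17.5 ± 1.67 in controls (SD, n = 4).

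Igf2r (ENSMUSG00000023830), the lysosomal sorting and IGF2 clearance receptor, was the most abundant of the 3 receptor genes in every library. It was at 22.1, 16.8 and 21.0 FPKM in ZQD, against 32.0, 24.2, 25.8 and 18.1 in controls. The groups overlapped through control 4, and the difference of -0.30 (SE 0.18) was -0.44 without control 4 and -0.17 without control 1. Insrr, the orphan receptor of the insulin receptor family, was at 0.0906 to 0.109 FPKM in ZQD and 0.115 to 0.189 in controls and fell under the filter.

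Of the adaptor genes, Irs1 separated the groups and Irs2 did not. Irs1 (ENSMUSG00000055980) was at 1.99, 2.22 and 2.47 FPKM in ZQD, against 4.15, 3.85, 3.69 and 3.89 FPKM in controls. All ZQD libraries were below all controls, with a gap between the groups wider than the range inside either. The coefficient of variation was 10.7% in ZQD and 4.96% in controls, the lowest of the 10 genes in controls, at 671 to 1895 reads per library. The log2(FPKM + 0.5) difference was -0.69 (SE 0.10), with -0.76 to -0.63 when 1 library was left out. Irs2 (ENSMUSG00000038894), whose product is the adaptor that dominates in liver and beta cells, was at 7.94, 7.58 and 9.74 FPKM in ZQD, against 12.1, 7.85, 10.8 and 12.02 in controls. Control 2 fell among the ZQD libraries, so the groups overlapped, and the difference was -0.32 (SE 0.16), or -0.45 without control 2. Irs1 made up 20.1%, 22.6% and 20.2% of the summed Irs1 and Irs2 FPKM in ZQD, against 25.5%, 32.9%, 25.5% and 24.4% in controls, without overlap. The highest share was in control 2, which had the lowest Irs2 of the controls.

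**Figure D3:**
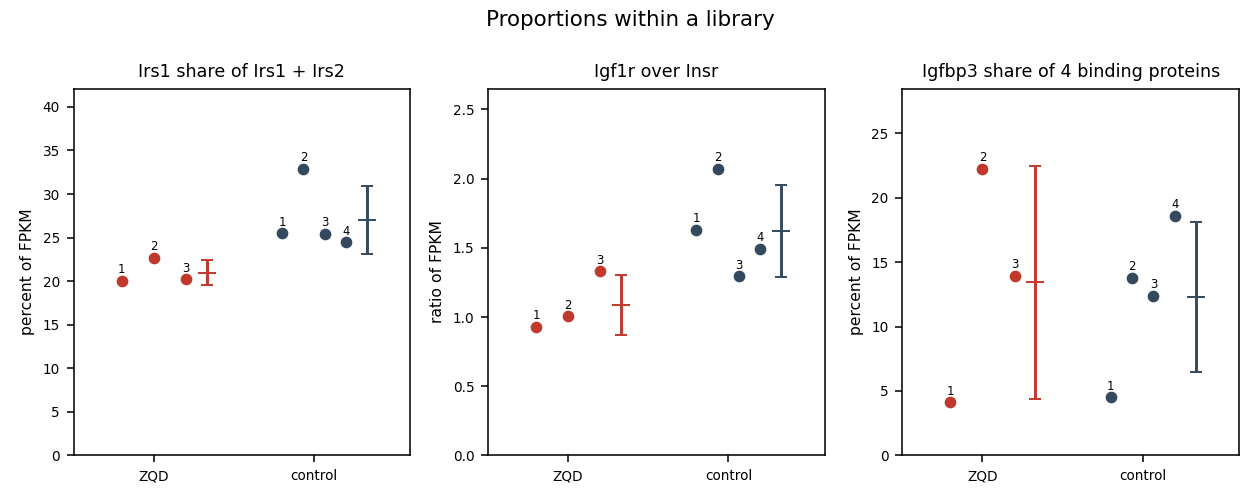
Proportions within each library, ZQD left and control right: Irs1 as a percent of the summed FPKM of Irs1 and Irs2, the ratio of Igf1r to Insr FPKM, and Igfbp3 as a percent of the summed FPKM of Igfbp3, Igfbp4, Igfbp5 and Igfbp7. Bars are means with SD. The Irs1 share is 20.1% to 22.6% in ZQD and 24.4% to 32.9% in controls, and the other 2 panels overlap.

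Promoter sequences (250 bases before to 50 after the gene start, RefSeq, GRCm38.p6) are shown for Irs1, Igf1 and Igf1r, the genes whose groups did not overlap, and for Irs2 and Igf2r, which share a motif with Irs1. The table held 9 of the 10 genes, and Insr had no entry. Capitals mark the E-box CACGTG, bound by helix-loop-helix factors such as MYC, USF and TFE3, and TGTTTTG, a form of the insulin response sequence bound by FOXO factors, on either strand. These motifs were picked after the promoters had been read.
Irs1, chr1:82291390-82291689, minus strand: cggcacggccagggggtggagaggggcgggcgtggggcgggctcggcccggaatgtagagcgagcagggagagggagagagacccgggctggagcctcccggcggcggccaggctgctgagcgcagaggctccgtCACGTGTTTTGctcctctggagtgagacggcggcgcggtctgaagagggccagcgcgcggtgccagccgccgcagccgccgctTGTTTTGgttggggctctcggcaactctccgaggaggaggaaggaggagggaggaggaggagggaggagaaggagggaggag
Irs2, chr8:11008880-11009179, minus strand: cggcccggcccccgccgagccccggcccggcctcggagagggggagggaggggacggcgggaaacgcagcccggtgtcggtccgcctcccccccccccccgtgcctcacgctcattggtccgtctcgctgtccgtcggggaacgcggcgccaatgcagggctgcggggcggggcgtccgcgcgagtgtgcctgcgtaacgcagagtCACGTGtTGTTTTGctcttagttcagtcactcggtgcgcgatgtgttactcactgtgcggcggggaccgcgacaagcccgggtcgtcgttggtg
Igf2r, chr17:12769657-12769956, minus strand: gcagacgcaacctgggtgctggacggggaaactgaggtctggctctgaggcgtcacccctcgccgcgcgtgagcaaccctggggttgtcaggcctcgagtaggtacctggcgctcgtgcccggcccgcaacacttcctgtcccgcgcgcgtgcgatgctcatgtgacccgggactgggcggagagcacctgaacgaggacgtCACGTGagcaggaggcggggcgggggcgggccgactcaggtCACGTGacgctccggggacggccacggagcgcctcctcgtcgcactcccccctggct
Igf1, chr10:87860861-87861160, plus strand: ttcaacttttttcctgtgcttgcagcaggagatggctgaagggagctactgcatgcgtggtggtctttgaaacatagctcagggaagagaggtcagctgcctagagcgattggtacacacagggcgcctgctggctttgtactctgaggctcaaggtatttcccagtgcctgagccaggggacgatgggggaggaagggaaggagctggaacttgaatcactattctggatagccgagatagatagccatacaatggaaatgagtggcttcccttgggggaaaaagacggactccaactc
Igf1r, chr7:67952007-67952306, plus strand: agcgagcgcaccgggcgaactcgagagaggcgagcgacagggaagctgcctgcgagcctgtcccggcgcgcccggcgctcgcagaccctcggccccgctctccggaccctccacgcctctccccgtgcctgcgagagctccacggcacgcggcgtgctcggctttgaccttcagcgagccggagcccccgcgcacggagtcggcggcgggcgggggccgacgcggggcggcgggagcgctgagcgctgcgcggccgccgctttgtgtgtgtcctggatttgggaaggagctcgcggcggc

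Both adaptor promoters hold an E-box with TGTTTTG beside it. In Irs1 the E-box begins 115 bases before the gene start and TGTTTTG begins inside it, at 111 bases before, with a second copy at 32. In Irs2 the E-box begins at 44 bases before the start and TGTTTTG follows at 37. Of 32851 promoters, 7.15% hold CACGTG, 6.28% hold TGTTTTG and 134 (0.408%) hold both, and among the 9 promoters here only those of Irs1 and Irs2 hold both. The Igf2r promoter holds 2 copies of CACGTG, 48 and 7 bases before the start, and those of Igf1 and Igf1r neither motif. The FOXO core GTAAACA, found in 3.65% of promoters, was in none of the 9. A form of the hypoxia response core, ACGTG, which every E-box of this kind contains, is in 19.6% of promoters and was in those of Irs1, Irs2, Igf2r and Igfbp7. Its other form, GCGTG, is in 32.4% of promoters and was in 7 of the 9. The GC content was 71.3% for Irs1 and 72.0% for Irs2, and 52.3% for Igf1, where the median promoter had 52.7%. A match is a stretch of letters, not evidence that a factor binds there.

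Hypoxia and glycolysis genes, like Irs1, were lower in ZQD, but the order of libraries inside each group differed. Of 12 such genes listed, 12 had a negative difference and 0 passed the adjusted threshold. For 6 the groups did not overlap, where 9.84% of all genes tested lay wholly below. The list was chosen with earlier results of these data known, so nothing is read from these counts. Their summed level was 412.4, 592.5 and 529.4 FPKM in ZQD and 620.3 to 895.4 in controls. ZQD 1 was lowest for both the sum and Irs1. Control 1 had the highest Irs1, at 4.15 FPKM, but the lowest sum of the controls, at 620.3. Control 4 had the highest sum. Their part in the Irs1 level was not tested.

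The 5 genes most like Irs1 over the 7 libraries were Cx3cl1 (Pearson r = 0.990), Unk (0.989), Rnf123 (0.989), Nedd4l (0.987) and Pogk (0.985). Cx3cl1, which encodes the membrane-bound chemokine fractalkine, was at 5.27, 5.20 and 5.71 FPKM in ZQD, against 10.6, 9.74, 9.51 and 10.2 in controls. Nedd4l, a ubiquitin ligase gene, was at 2.25, 2.43 and 2.58 FPKM in ZQD, against 3.05, 2.90, 2.88 and 2.98 in controls. In all 5, as in Irs1, control 1 or control 2 was the highest library. A total of 70 genes reached r above 0.95, and all points share the split into 2 groups. Among pairs of the 10 genes themselves, Irs1 and Igf1r were closest (r = 0.937), followed by Igfbp4 and Igf2r (0.917), while Irs1 and Igf1 ran opposite (-0.892).

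By group mean, the binding protein genes Igfbp4, Igfbp7 and Igfbp3 held the highest levels of the 10 genes, and Igfbp5 was among the lowest. None of these 4 separated the groups. Igfbp4 (ENSMUSG00000017493), whose product inhibits IGF until PAPP-A cuts it, was at 131.4, 100.2 and 147.5 FPKM in ZQD, against 187.4, 179.4, 155.8 and 112.0 in controls. Control 4 lay inside the ZQD range, and the difference of -0.32 (SE 0.20) was -0.48 without control 4 and -0.16 without ZQD 2. Igfbp7 (ENSMUSG00000036256), a low-affinity binding protein abundant in vessel walls, was at 57.9, 60.0 and 35.6 FPKM in ZQD, against 39.4, 38.6, 46.1 and 30.8 in controls. ZQD 1 and ZQD 2 were above all controls and ZQD 3 was among them, giving a difference of 0.37 (SE 0.20), or 0.61 without ZQD 3 and 0.24 without ZQD 2. Endothelial markers, summed over 8 genes, were at 24.6, 53.2 and 38.8 FPKM in ZQD and 26.7 to 42.0 in controls, and their part in the Igfbp7 level was not tested.

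Igfbp3 (ENSMUSG00000020427), the main carrier of circulating IGF, varied more within each group than between them. It was at 8.15, 46.4 and 29.6 FPKM in ZQD, against 10.7, 34.8, 28.6 and 32.6 in controls. ZQD 1 and control 1 were both low and ZQD 2 was highest. The means were 28.1 ± 19.2 FPKM in ZQD (SD, n = 3) and 26.7 ± 10.9 in controls (SD, n = 4), and the log2 difference of -0.11 (SE 0.59) was 0.60 without ZQD 1 and -0.62 without ZQD 2. Igfbp3 supplied 4.12% of the summed binding protein FPKM in ZQD 1 and 4.51% in control 1, against 12.4% to 22.2% in the other 5 libraries. The gene most like it was Stc1 (r = 0.985), which encodes stanniocalcin 1, a secreted inhibitor of PAPP-A, at 1.03, 3.53 and 2.81 FPKM in ZQD and 1.14, 3.09, 2.24 and 2.53 in controls. Stc1 was low in the same ZQD 1 and control 1. Igfbp3 and Igfbp5 were singled out for such a search after their values were seen.

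Igfbp5 (ENSMUSG00000026185), a matrix-bound binding protein of mesenchymal cells, was at 0.574, 2.04 and 0.0862 FPKM in ZQD, against 0.804, 0.0728, 0.203 and 0.114 in controls. ZQD 2, control 1 and ZQD 1 were high in that order, and the other 4 libraries had 17 to 39 reads. It met the filter through those 3 libraries alone. The same 3 had the highest summed fibroblast markers, at 262.8 FPKM in ZQD 2, 130.0 in ZQD 1 and 152.5 in control 1, whose part in the Igfbp5 level was not tested. Single markers of that list did not all place those 3 libraries highest. The difference of 0.63 (SE 0.49) was 0.074 without ZQD 2 and 1.13 without ZQD 3. The genes most like Igfbp5 began with Ndufa4l2 (r = 0.976), Osmr (0.967) and F13a1 (0.964), and included Adamts2 (0.959), a procollagen protease gene.

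**Figure D4:**
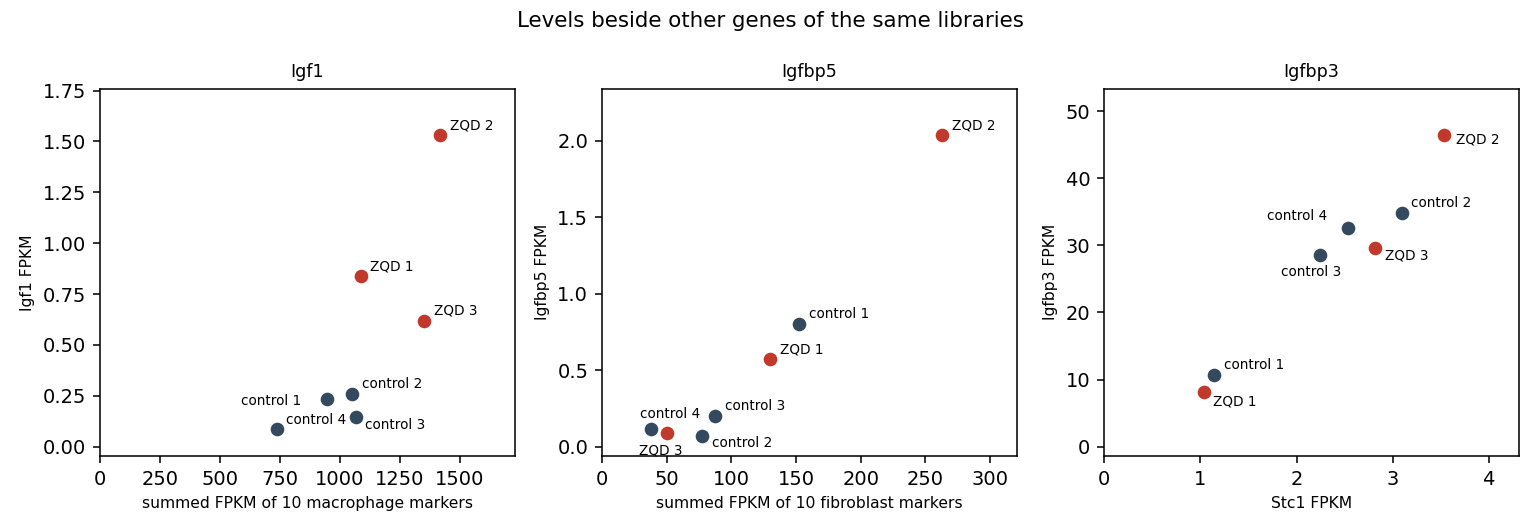
FPKM of Igf1, Igfbp5 and Igfbp3 in each library (vertical axes) beside the summed FPKM of 10 macrophage markers, the summed FPKM of 10 fibroblast markers and the FPKM of Stc1 (horizontal axes), ZQD in red and control in dark blue. Igf1 is above 0.6 FPKM only in ZQD libraries, Igfbp5 is high in the 3 libraries with the highest summed fibroblast markers, and ZQD 1 and control 1 are low for both Igfbp3 and Stc1.

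The wider pathway was taken as 85 further genes listed by role, of which 83 had a row and 70 passed the filter. Igfals and Igfbp1 were not analysed here. By limma, 0 of the 70 passed an adjusted p of 0.05 over all genes, the lowest being 0.154, while DESeq2 passed 3 (Hk2, Srebf1 and Socs1) and edgeR 0. At an unadjusted p under 0.05, 10 (14.3%) were lower and 2 (2.86%) higher in ZQD, where 10.3% and 5.21% of all 14838 genes were. Groups did not overlap for 9 (12.9%) lower and 2 (2.86%) higher genes, where 9.84% and 5.35% of all genes did not. The median log2 difference was -0.041, beside -0.043 over all genes tested, so the median pathway gene stood close to the median gene.

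**Figure D5:**
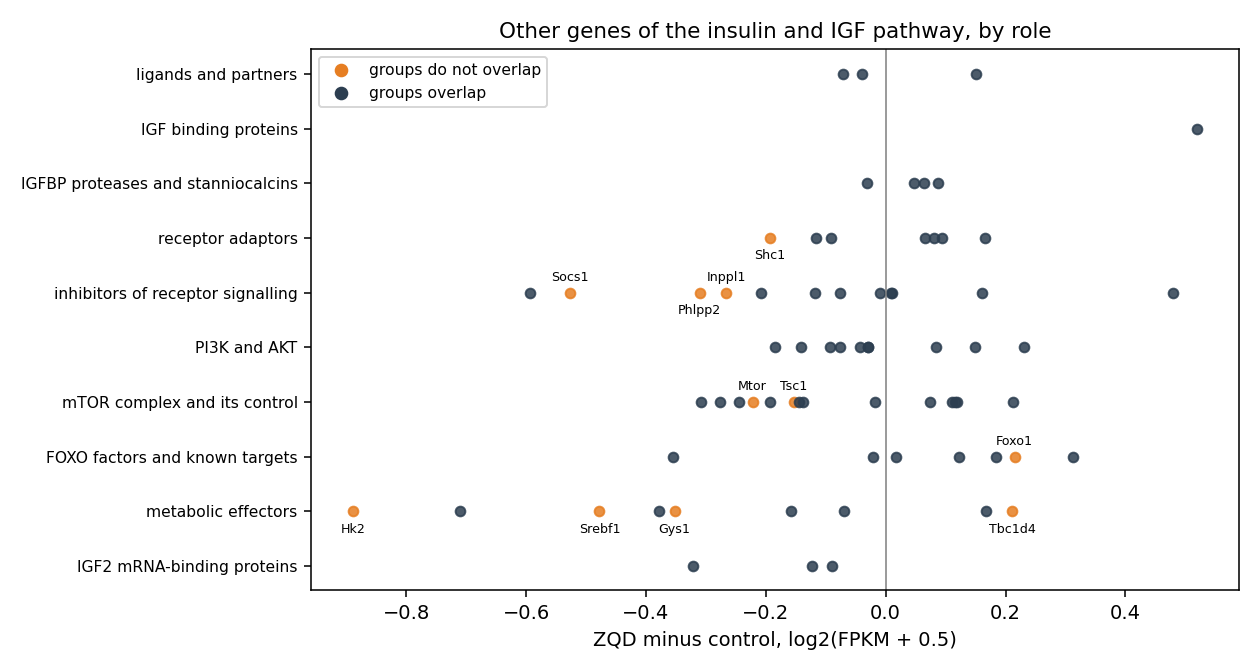
ZQD minus control difference on the log2(FPKM + 0.5) scale for the 70 tested pathway genes that are not among the 10, 1 point per gene, in rows by role. Orange points have groups that do not overlap and are named. They number 11, with 9 to the left of 0 and Foxo1 and Tbc1d4 to the right.

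The metabolic effectors held the most genes at an unadjusted p under 0.05, 5 of 9 lower and 1 higher, where 10.3% and 5.21% of all genes tested were. The list was chosen with earlier results of these data known, so these counts are a description only. Hk2, hexokinase 2, was at 21.5 ± 5.87 FPKM in ZQD (SD, n = 3) and 39.4 ± 6.28 in controls (SD, n = 4), a difference of -0.89 (SE 0.19, limma adjusted p = 0.154). Srebf1, the lipogenic transcription factor that insulin induces, was at 13.0 ± 1.72 FPKM in ZQD and 18.3 ± 1.59 in controls (-0.48, limma adjusted p = 0.156). Slc2a1, the glucose transporter GLUT1, was at 63.8 ± 19.5 FPKM in ZQD and 103.6 ± 24.5 in controls, with groups that overlapped (-0.71, limma adjusted p = 0.228). Hk2 and Slc2a1 also stand on the hypoxia and glycolysis list. Slc2a4, the insulin-regulated transporter GLUT4, was under the filter.

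Among 12 tested inhibitors of receptor signalling, 3 were lower without overlap, as were 9.84% of all genes tested. Socs1, a cytokine-induced suppressor that also targets IRS proteins, was at 3.72 ± 0.390 FPKM in ZQD and 5.59 ± 0.719 in controls (-0.53, limma adjusted p = 0.155). Phlpp2, an AKT phosphatase gene, was at 3.85 ± 0.434 FPKM in ZQD and 4.88 ± 0.311 in controls (-0.31, limma adjusted p = 0.231). Inppl1, the lipid phosphatase SHIP2, was the third, at 14.6 ± 0.509 FPKM in ZQD and 17.8 ± 2.46 in controls. Ptpn2 and Socs3, the most abundant of the list, had differences of 0.010 and -0.12.

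Of 10 PI3 kinase and AKT genes, 0 had an unadjusted p under 0.05, where 10.3% of all genes tested were lower and 5.21% higher. The most abundant, Akt1, which encodes a serine/threonine kinase, was at 36.9 ± 1.25 FPKM in ZQD and 40.9 ± 4.47 in controls (-0.14, limma adjusted p = 0.512). Of 14 mTOR genes, Mtor (4.93 ± 0.511 FPKM in ZQD and 5.82 ± 0.370 in controls, -0.22) and Tsc1 had ZQD libraries below all controls, as did 9.84% of all genes tested. With lists this short, nothing is read from these counts. Rps6kb1, the S6 kinase gene, was higher at an unadjusted p under 0.05, at 15.1 ± 1.17 FPKM in ZQD and 12.9 ± 0.701 in controls (0.21, limma adjusted p = 0.300), and Eif4ebp1 and Deptor had differences of -0.31 and 0.12. Of the FOXO factors, Foxo3 was at 9.98 ± 1.41 FPKM in ZQD and 12.98 ± 2.39 in controls (-0.36). Foxo4 was at 9.96 ± 1.63 FPKM in ZQD and 9.06 ± 0.713 in controls (0.12), and Foxo1 at 1.86 ± 0.168 in ZQD and 1.53 ± 0.0830 in controls (0.22). The FOXO target Bcl6 had a difference of 0.31. None of these passed the adjusted threshold.

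Where 10.3% of all genes tested were lower and 5.21% higher at an unadjusted p under 0.05, the remaining roles held 1 such gene. This was Shc1, the adaptor that leads to RAS, at 22.0 ± 0.959 FPKM in ZQD and 25.2 ± 1.66 in controls (-0.19, limma adjusted p = 0.309), and Grb2 and Sh2b1 had differences of 0.094 and -0.12. The growth hormone receptor gene Ghr was at 8.71 ± 0.893 FPKM in ZQD and 9.45 ± 2.61 in controls. Igf2 was at 0.158 to 0.341 FPKM in ZQD and 0.155 to 0.338 in controls, under the filter. Of the binding proteins outside the set, Igfbp6 was at 2.42 ± 1.13 FPKM in ZQD and 1.47 ± 0.386 in controls (0.52, limma adjusted p = 0.366), and Igfbp2 had at most 10 reads. Pappa, which encodes PAPP-A, was under 0.05 FPKM in every library and its relative Pappa2 at 0.804 ± 0.104 FPKM in ZQD and 0.751 ± 0.143 in controls. Of the other secreted proteases, Htra1 was at 75.0 ± 9.63 FPKM in ZQD and 76.5 ± 7.20 in controls, and Adamts1 had a difference of 0.088. The IGF2 mRNA-binding protein genes Igf2bp2 (35.9 ± 1.34 FPKM in ZQD and 38.2 ± 2.07 in controls) and Igf2bp1 (1.97 ± 0.526 in ZQD and 2.59 ± 0.627 in controls) overlapped between groups.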

How the data were processed

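Poly(A) RNA of tumour tissue was sequenced in 7 paired-end libraries, per the labels' protocols. For each of the 7 libraries the authors deposited FPKM, and for controls 1 and 2 also raw counts. The submitters' processing notes name HISAT2, featureCounts, Subread and DESeq2; no version, genome build, annotation or strand setting is given in the sources used here. In the 2 count files more gene values were 2 reads (4678) than 1 read (2104), so reads are not independent molecules and counting intervals would be too narrow.

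Gene lengths for 27421 of 32212 genes followed from counts and FPKM, and reads were rebuilt from the FPKM, with 100% of values within 0.05 of a whole number. Symbols matched 98.0% of identifiers. limma 3.58.1 (with trend, R 4.3.3) was fitted to log2(FPKM + 0.5) for 14838 genes with at least 0.5 FPKM in at least 3 libraries, two-sided, adjusted over all genes. The alternatives were edgeR 4.0.16 and DESeq2 1.42.0 on rebuilt reads (14832 genes, of which 2307 had no adjusted p in DESeq2), pseudocounts, filters, scalings, no trend, a replicate block and each library left out. The fits were also run on simulated reads. There limma recovered 54% of changes of log2 1 and 100% of log2 2, with 17 false calls. In edgeR these values were 68%, 100% and 11, and in DESeq2 73%, 100% and 28.

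The 10 genes and the pathway and marker lists were chosen with earlier results of these data known. Named pathway genes are, per role, the 2 of smallest p and the 2 of highest mean FPKM. Inppl1, Tsc1, Foxo1, Tbc1d4, Igf2, Pappa and Slc2a4 fall outside that rule. So do Folr2, Adgre1, C1qa, C1qb, Lyz2, Cdh1, Krt18 and Krt19. All of these were named after their values were seen. A gene that the rule names is not reported here. Genes most like Irs1 and Igf1 were the 5 of highest Pearson r over 7 libraries, without predicted genes and pseudogenes. Promoters came from RefSeq (GRCm38.p6). Figures were drawn with matplotlib 3.10.9.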

Additional observations from a re-analysis of the deposited data

Results flagged for a closer look

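Among the control groups of 40 genes, 3 had 1 library apart from the other controls by Dixon's test, and chance flags about 1 in 20 groups. Insr was lowest in control 2, at 5.02 FPKM, with the other controls at 7.14 to 7.57, and the difference between groups changes sign without it. Shc1 was highest in control 1, at 27.7 FPKM, with the others at 24.2 to 24.8. Foxo4 was lowest in control 4, at 7.99 FPKM, with the others at 9.34 to 9.47. Groups of 3, as in ZQD, were not checked.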

How the results depend on the processing

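Of 188 values of the 10 genes under alternatives, 173 kept their sign and lay within 1 SD between replicates of the reported value, 8 lay farther off with the same sign and 7 changed sign. The sign of Igfbp3 (-0.11 as reported) turned with the replicate block (0.028), edgeR (0.12), DESeq2 (0.12) and with single libraries left out (-0.62 to 0.60), and that of Insr only without control 2 (-0.019 to 0.16 with 1 library left out). Irs1 was -0.87 and Igf1 1.66 on the TPM scale, where the median of all genes was -0.15 and 377 genes were higher and 2861 lower at an unadjusted p under 0.05. The same split was 1097 higher and 1083 lower by median-of-ratios scaling, 1090 and 1096 by TMM, 1153 and 1045 when mitochondrial genes were left out of the totals, and 773 and 1533 as reported. Igfbp5 was 1.64 in edgeR and 1.66 in DESeq2. The count of genes past the adjusted threshold was 517 in DESeq2 and 1 with the replicate block, in place of 0. Of the pathway genes outside the 10, DESeq2 passed 3 (Hk2, Srebf1 and Socs1) in place of 0. edgeR passed none of these, and the cause was not tested. Leaving out single libraries kept both counts at 0. Same-numbered ZQD and control libraries correlated at 0.25, 0.0998 and -0.15 in their deviations from group means. So few values cannot decide whether these libraries share more than a number. ZQD 2 alone correlated best with its own number, while ZQD 1 was at 0.252 with control 1 and 0.255 with control 3. With the block no pathway gene passed, as without it, and control 4, alone in its block, adds nothing to that fit. Depth limits Igf1 and Igfbp5, which had under 50 reads in some libraries. The filter of at least 1 FPKM in 3 libraries leaves Igf1 and Igfbp5 out.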

Other observations

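Reads of genes known from pancreatic beta cells, chosen after the values were seen, were counted in all 7 libraries. Ins2, an insulin gene, was at 28.2, 25.5 and 42.8 FPKM in ZQD 1 to 3, against 25.9, 32.2, 37.9 and 34.1 FPKM in controls 1 to 4, and rested on 1292 to 1954 reads per library. The groups overlapped (log2 difference -0.040, limma adjusted p = 0.938). It exceeded Igf1, and in every library also Irs2, Igf1r and Insr. Ins1, a near-identical copy whose division of reads with Ins2 is uncertain, was at 0.191 to 0.998 FPKM over all libraries.

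Iapp, the amyloid peptide that beta cells secrete with insulin, was at 16.2, 13.1 and 20.8 FPKM in ZQD, against 14.4, 15.5, 19.98 and 17.0 in controls. Both Ins2 and Iapp were highest in ZQD 3 and next in control 3. The beta cell factors Mafa (0.897 to 1.73 FPKM in ZQD and 1.75 to 2.68 in controls), Nkx6-1 (0.643 to 1.02 FPKM in ZQD and 0.651 to 0.935 in controls) and Pdx1 (0.327 to 0.720 FPKM in ZQD and 0.371 to 0.572 in controls) and the granule gene Chgb (1.76 to 2.08 FPKM in ZQD and 1.81 to 2.64 in controls) were detected in every library. Hormone genes of other islet cells were also detected in every library, at low depth. The glucagon gene Gcg was at 0.450 to 0.817 FPKM in ZQD and 0.374 to 0.710 in controls, with at most 45 reads. The somatostatin gene Sst was at 0.150 to 0.638 FPKM in ZQD and 0.143 to 0.606 in controls, with at most 16 reads. The glucose transporter gene Slc2a2 had at most 8 reads and the exocrine gene Prss2 at most 2. Where these transcripts come from was not tested.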
